A study of Mus musculus with 6 samples.

Results

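NMDA receptor subunits were examined in RNA-seq data from primary somatosensory cortex of C57BL/6 mice at postnatal day 14. The members are the 7 genes Grin1, Grin2a, Grin2b, Grin2c, Grin2d, Grin3a and Grin3b, chosen by name, and all 7 were found by gene ID among the 47794 genes of the table. Control mice carried β-catenin with a floxed exon 3 (β-cat lox(ex3)), and overexpression mice carried the same floxed allele with Nex-Cre (β-cat lox(ex3);Nex-Cre), with 3 libraries in each group. Without exon 3 β-catenin lacks its degradation sites and builds up. Nex-Cre sits in the Neurod6 locus and acts in forebrain excitatory neurons. Inhibitory neurons, glia and vessels in the same tissue are therefore not targeted. No group carried Nex-Cre alone, so stabilised β-catenin and Cre in the Neurod6 locus cannot be told apart in any group difference. Whether the floxed allele was on 1 or both chromosomes is not given in the sources used here, nor is the number of animals behind each library. All p-values therefore rest on library spread, which may be technical.

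NMDA receptors are glutamate-gated cation channels made of 4 subunits that pass calcium when glutamate binds while the membrane is depolarised. Every receptor holds GluN1, encoded by Grin1, which binds glycine or D-serine. GluN2 subunits, encoded by Grin2a to Grin2d, bind glutamate and set the speed of the channel. GluN3 subunits, encoded by Grin3a and Grin3b, bind glycine and lower calcium entry. In developing cortex GluN2B is known to come first and GluN2A to be added in early postnatal life. The Grin2a share against Grin2b is measured here in RNA and at day 14 only, so it does not place the tissue in that exchange. β-Catenin joins cadherins at synapses and carries Wnt signals to the nucleus.

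The subunits are related by descent, so their coding sequences (GENCODE M21, GRCm38) were compared first to see whether reads of one could be counted for another. The longest run shared by Grin2a and Grin2b anywhere in their coding sequence was 24 bases. The longest run between any pair of the 7 was 34 bases, for Grin2b and Grin2c. No window of 50 coding bases was shared by any of the 21 pairs (0 windows in each). The read length is not given in the sources used here, and untranslated parts were not compared.

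On the opposite strand other genes overlap some members, and the library kit named in the labels (Illumina TruSeq RNA) does not mark strand. Reads from such overlaps cannot be told apart by strand. In GENCODE M21, the antisense gene Grin1os covers 1307 bases of Grin1 exons, 13.5% of them. Tmem259, which encodes a membrane protein, covers 1059 bases of Grin3b exons, 32.1% of them, and its mean of 1756 in control cortex was far above that of Grin3b. The Grin2d exons overlap an antisense gene over 9.66% of their length, and the Grin2b and Grin2c exons overlap other genes over less than 2% of theirs. The members lie on chromosomes 2 (Grin1), 16 (Grin2a), 6 (Grin2b), 11 (Grin2c), 7 (Grin2d), 4 (Grin3a) and 10 (Grin3b).

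Each gene had 1 value per group, a mean of scaled read counts from 3 libraries, and these means summed to 19016749 in control and 18602579 in overexpression cortex. Excitatory neuron markers were high in both groups (Slc17a7 at 31689 in control and 30449 in overexpression cortex). Their sum was 142873 in control and 136015 in overexpression cortex, with 6 of 6 lower in overexpression. The 6 include Neurod6, the locus of Nex-Cre. Of all 4306 genes with a mean of at least 1000, 3012 were lower and 1294 higher in overexpression. The sum of oligodendrocyte markers was 124119 in control and 133487 in overexpression cortex, with 6 of 6 higher. The 6 markers of cerebellar granule cells summed to 558 in control and 516 in overexpression cortex, most of it from Neurod1 (317 and 316) and Cbln1 (216 and 170). Of these 6, Gabra6 (0.728 and 0.69) and Barhl1 (1.05 and 0.345) were below 10 in both groups. Markers of striatal neurons were present in both groups, and their sum was 4126 in control and 4845 in overexpression cortex, with 6 of 6 markers higher in overexpression. Markers of other regions were present too. Those of hippocampal neurons summed to 7453 in control and 7588 in overexpression cortex, with 3 of 6 higher. Thalamic neuron markers summed to 2795 and 2602, with 3 of 6 lower, and choroid plexus markers to 377 and 203, with 5 of 6 lower. Neurod6, whose locus carries Nex-Cre, was at 1942 in control and 1199 in overexpression cortex (p = 5.04e-05, adjusted p = 0.76 in the authors' deposited table). Ctnnb1 itself was at 7574 in control and 6391 in overexpression cortex, a difference of -15.6% (p = 0.0304, adjusted p = 1 in the authors' deposited table). This value includes the exons outside the deleted one and so does not check the genotype. In bulk tissue fewer cells of a type and less RNA per cell cannot be told apart.

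Across the 7 subunits no change was detected between control and overexpression cortex. By the authors' deposited table, 0 of 7 members passed an adjusted p of 0.05, and 0 of 7 passed it before adjustment. The background in the authors' deposited table was 0% of 30152 tested genes past the adjusted threshold and 0.534% (161 genes) past it before adjustment, 0.328% higher and 0.206% lower in overexpression cortex. A count of 0 among 7 is therefore near the background and does not show that the subunits were unchanged. Each adjusted p of the 7 was 1 in the authors' deposited table, where their raw p ran from 0.42 (Grin1) to 0.865 (Grin3a). Over all tested genes the median of these p-values was 0.725 in the authors' deposited table. Of the 7 members 5 had a lower and 2 a higher mean in overexpression cortex, and the median log2 ratio of overexpression over control was -0.04. Over all tested genes that median was -0.0086, and over the 4306 genes with a mean of at least 1000 it was -0.03.

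**Figure D1:**
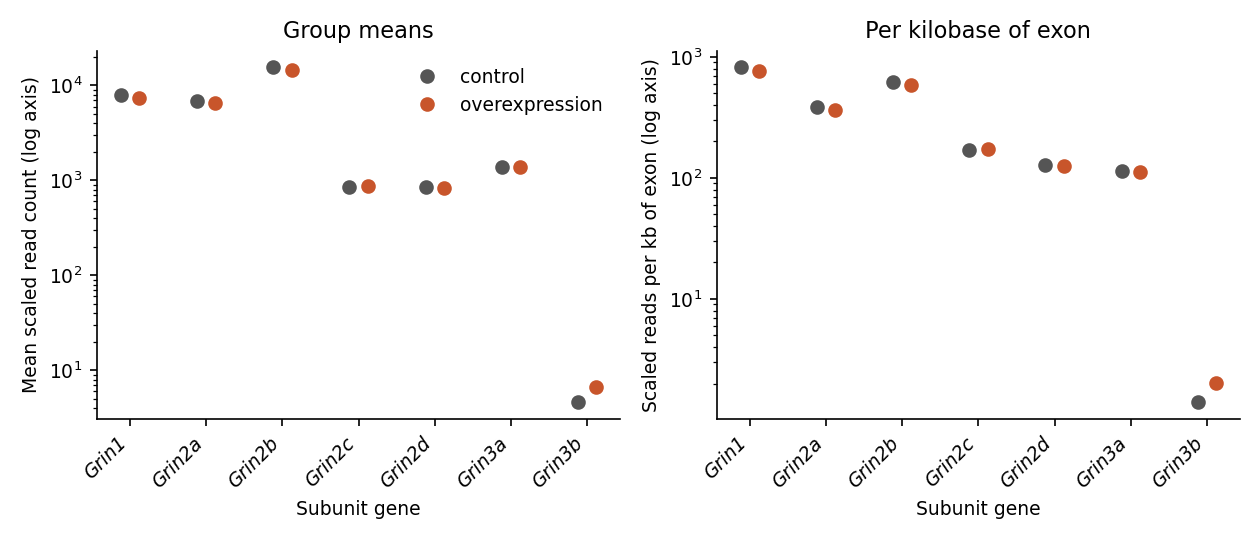
Mean scaled read count of each subunit gene in control (grey) and overexpression (orange) cortex, on log axes, as deposited (left) and per kilobase of annotated exon (right). Each point is 1 group mean with no spread. Grin2b has the highest mean, Grin1 is highest per kilobase of exon, and Grin3b is lowest in both panels.

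Grin1, the subunit that every receptor needs, had a mean of 7919 scaled reads in control and 7429 in overexpression cortex. It stood 346th of the 47794 genes by its mean over both groups. The overexpression mean differed from the control mean by -6.19%, a log2 ratio of -0.09, with p = 0.42 in the authors' deposited table.

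Grin2b and Grin2a, the main GluN2 genes of forebrain, had nearly the same ratio as Grin1. Grin2b (rank 108) was at 15451 in control and 14478 in overexpression cortex, a difference of -6.3%, with p = 0.614 in the authors' deposited table. Grin2a (rank 425) was at 6921 in control and 6477 in overexpression cortex, a difference of -6.41%, with p = 0.636 in the authors' deposited table. The log2 ratios of Grin1, Grin2a and Grin2b lay within 0.0034 of each other. A ratio this low was common among abundant genes. Among 4306 genes with means of 1000 or more, 19% had a log2 ratio at or below that of Grin1, 18.2% at or below that of Grin2b and 17.5% at or below that of Grin2a. The means of Grin1, Grin2a and Grin2b were too high for library values to be recovered, so their spread is not known. For scale, the median coefficient of variation between control libraries was 6.88% over 3281 genes with means of 400 to 1000. This is as large as the differences seen here, but it is a spread of single libraries at lower means. The differences are between means of 3 libraries, so the spread is only a rough guide. The 6 excitatory neuron markers, Neurod6 among them, also had lower means in overexpression cortex. So did 3012 of the 4306 genes with means of 1000 or more. The 6 oligodendrocyte markers had higher means. The part of both marker sets in the values of Grin1, Grin2a and Grin2b was not tested.

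The balance of Grin2a against Grin2b was the same in both groups to within counting error. Grin2a made up 30.9% of the summed Grin2a and Grin2b reads in control cortex (95% Wilson interval 30.6% to 31.3%, from at least 60873 reads). In overexpression cortex it made up 30.9% (30.5% to 31.3%, from at least 60727 reads). The difference was -0.024 percentage points, and the log2 ratio of Grin2a to Grin2b moved by -0.0016. These intervals cover counting error only, since reads without molecular identifiers are not independent molecules and the spread between libraries is not known. The level of the share depends on the length used. The annotated exons of Grin2b span 24842 bases and those of Grin2a 17933, while their longest coding sequences are close, at 4449 and 4395 bases. Per kilobase of coding sequence the Grin2a share was 31.2% in both groups, and per kilobase of exon it was 38.3% in both. By all 3 measures Grin2b was above Grin2a, by 2.23-fold in reads and 1.61-fold per kilobase of exon in control cortex.

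**Figure D2:**
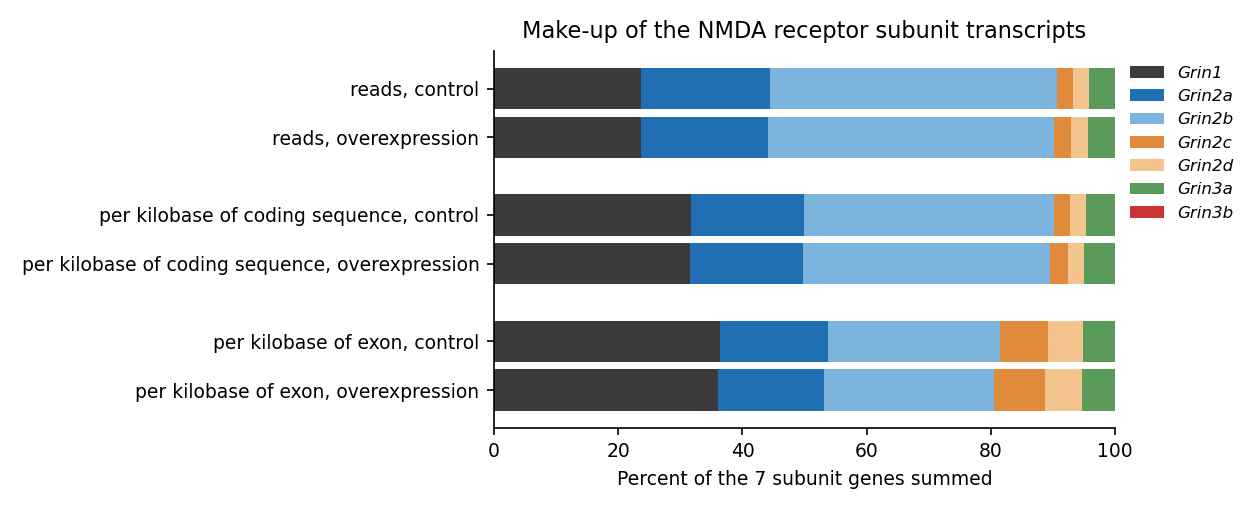
Percent of the 7 subunit genes summed that each gene makes up, in control and overexpression cortex, in reads, per kilobase of coding sequence and per kilobase of exon. Bars of the 2 groups are nearly alike within each unit, and the unit changes the shares more than the group does. Grin3b is too low to be seen.

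The whole set of 7 kept nearly the same make-up in both groups. In reads, Grin2b made up 46.2% of the sum in control and 46% in overexpression cortex, Grin1 23.7% and 23.6%, and Grin2a 20.7% and 20.6%. Grin3a made up 4.18% in control and 4.36% in overexpression cortex, and Grin2d 2.56% and 2.64%. Grin2c made up 2.58% in control and 2.79% in overexpression cortex. The difference for Grin2c, 0.206 percentage points, was larger than its counting error (0.148 points to either side), while the differences of the other 6 members were within theirs. That of Grin3a was only just within, at 0.183 against 0.186 points. The reads were counted at their least, which widens these errors, so Grin2c is not clearly set apart from Grin3a. The spread between libraries of the summed reads is not known, so this was not a test between groups. Summed over the 4 GluN2 genes, reads were 3.04 times those of Grin1 in control and 3.05 times in overexpression cortex. That ratio was 1.6 in control and 1.62 in overexpression cortex per kilobase of exon, and 1.998 and 2.005 per kilobase of coding sequence. In reads the sum of Grin3a and Grin3b was 0.177 times Grin1 in control and 0.186 times in overexpression cortex, and per kilobase of exon 0.141 and 0.149 times.

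The order of levels was read per length, since longer transcripts yield more reads. The exon length joins all annotated exons of a gene, so it can exceed the length of any single transcript. Per kilobase of exon in control cortex, Grin1 was highest at 816 scaled reads, followed by Grin2b at 622 and Grin2a at 386. Grin2c followed at 171 ± 4.49 (SD, n = 3 recovered libraries), then Grin2d at 128 ± 5.29 (SD, n = 3) and Grin3a at 114, with Grin3b last at 1.4 ± 0.367 (SD, n = 3). Overexpression cortex gave the same order, from 766 for Grin1 to 2.03 for Grin3b. On this scale the library values of Grin2c, 166 to 175 in control cortex, lay above those of Grin2d, 123 to 134. Grin2d and Grin3a lay close, and since Grin3a has no library values, whether they differ beyond their spread is not known. Per kilobase of coding sequence the order was another one, with Grin2b at 3473 above Grin1 at 2750 in control cortex and Grin3a at 410 above Grin2c at 232. On that scale Grin2c and Grin2d came close, at 232 ± 6.08 and 215 ± 8.86 (SD, n = 3).

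For 3 members, library values could be recovered from the group means, because each mean is a sum of whole reads from 3 libraries, each read worth a fixed amount. Within each group the libraries are lettered by falling scaling factor (A, B, C). The letters neither match replicate numbers nor pair libraries between groups. For Grin2c and Grin2d in overexpression cortex, 1 combination was left only with libraries held within 1.25-fold of the mean. Within 2-fold, 5 combinations fitted for Grin2c and 3 for Grin2d. Their overexpression library values, and the SDs, overlaps, shares and tests that use them, therefore depend on that limit.

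**Figure D3:**
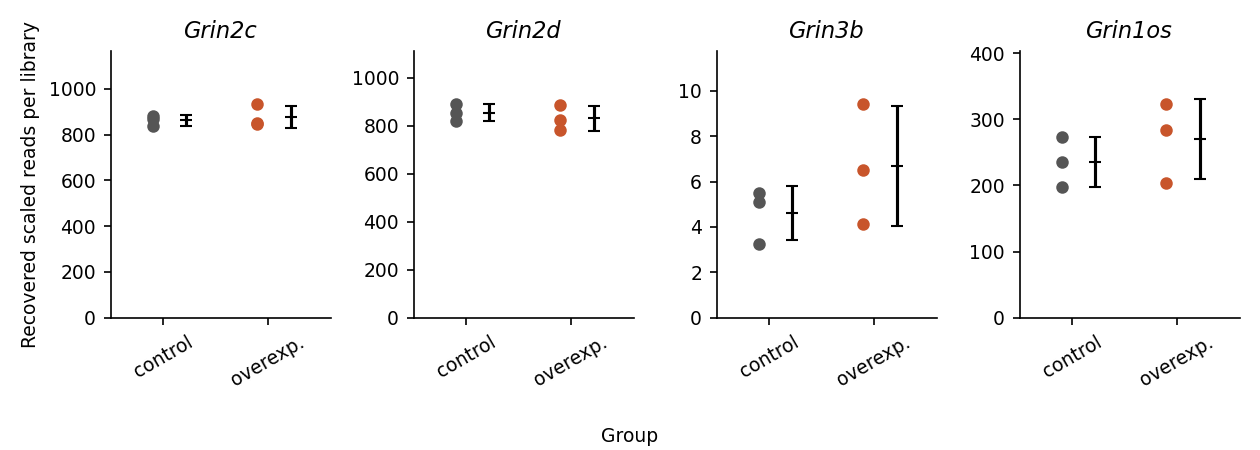
Scaled reads in each recovered library (points) with the mean and SD (bars, n = 3) for Grin2c, Grin2d, Grin3b and the antisense gene Grin1os, in control (grey) and overexpression (orange) cortex, with axes from 0. The groups overlap in all 4 panels, and Grin3b rests on 3 to 10 reads a library.

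Grin2c encodes GluN2C, best known from cerebellar granule cells and also found in astrocytes of forebrain. Its control libraries A, B and C held 881, 837 and 869 scaled reads (862 ± 22.6, SD, n = 3), and its overexpression libraries 845, 934 and 853 (877 ± 49.1, SD, n = 3). The groups overlapped, and overexpression B was the highest of the 6. The log2 ratio was 0.02, limma gave 0.02 (95% interval -0.14 to 0.19, adjusted p = 1), and without overexpression B the log2 ratio of means was -0.02. The 6 cerebellar markers summed to 558 in control and 516 in overexpression cortex, with Gabra6 near 0. The summed level of 7 astrocyte markers was 33193 in control and 32111 in overexpression cortex, with 3 of 7 higher and 4 lower in overexpression. The most abundant, Slc1a3 and Aldoc, were lower, at 11309 and 10287 in control and 10887 and 9590 in overexpression cortex. Aqp4, the astrocyte water channel, was among the 3 higher, at 2556 and 2639. The part of these markers in the Grin2c values was not tested.

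Grin2d encodes GluN2D, which gives slow channels and is known in cortex from inhibitory neurons. Its control libraries A, B and C held 820, 890 and 852.5 scaled reads (854 ± 35.2, SD, n = 3), and its overexpression libraries 823, 887 and 782 (831 ± 52.6, SD, n = 3). The range of the overexpression libraries took in 2 of the 3 control libraries. The log2 ratio was -0.04, limma gave -0.04 (95% interval -0.21 to 0.13, adjusted p = 1), and without overexpression C the log2 ratio of means was 0.0013. The summed level of 7 inhibitory neuron markers was 13716 in control and 12482 in overexpression cortex, with 6 of 7 lower and 0 of 7 with p under 0.05 in the authors' deposited table, and Gad1, which makes GABA, was at 4149 and 3780. The part of these markers in the Grin2d values was not tested.

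Grin2c and Grin2d stood at nearly equal read levels in every library. Grin2c made up 51.8%, 48.5% and 50.5% of the sum of both in control libraries A, B and C (50.2% ± 1.68, SD, n = 3). It made up 50.7%, 51.3% and 52.2% in the overexpression libraries (51.4% ± 0.749, SD, n = 3). The groups overlapped, and the mean log2 ratio of Grin2c to Grin2d was 0.0646 higher in overexpression cortex (exact two-sided permutation test, p = 0.4, where 3 against 3 allows no p below 0.10).

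Grin3a, which encodes the GluN3A subunit of young synapses, had a mean of 1397 in control and 1374 in overexpression cortex, a log2 ratio of -0.02 with p = 0.865 in the authors' deposited table. This ratio was 0.0073 with both columns brought to the same total. Grin3a was the fourth most abundant member in reads. Its library values could not be recovered, since 2 combinations of whole reads in control and 3 in overexpression cortex matched its mean even with libraries held within 1.25-fold of it.

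Grin3b, which encodes GluN3B and is known from motor neurons, was barely detected. Its control libraries held 5, 3 and 5 reads and its overexpression libraries 8, 10 and 4, which scale to 4.61 ± 1.21 and 6.69 ± 2.64 (SD, n = 3 each). The ranges overlapped, since overexpression C lay below control A and C, as they did for most genes (6.48% of all recovered genes had no overlap). The log2 ratio of means was 0.54, with p = 0.532 in the authors' deposited table. In limma without a minimum mean, on log2 of 1 plus the value, it was 0.42 with a 95% interval from -0.68 to 1.52 (adjusted p = 0.94), and 3.17% of all genes in that fit had an unadjusted p under 0.05. Without overexpression B the log2 ratio of means was 0.21, without control B 0.34. A change in Grin3b was not detectable at this depth, and reads from its overlap with the more abundant Tmem259 cannot be told apart from it.

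Of the 12395 genes with a recovered mean of at least 10, limma called 0% at an adjusted p under 0.05 and gave 2.07% an unadjusted p under 0.05, and Grin2c and Grin2d were in neither class. Library values of the 2 groups did not overlap for 5.89% of the 2986 recovered genes with means of 400 to 1000, and did overlap for Grin2c and Grin2d. For these 2986 genes the median 95% interval reached 1.15-fold to either side, so a change of the size seen for Grin1, Grin2a and Grin2b would be within the interval of a typical gene of that range.

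Genes whose log2 values over the 6 recovered libraries were most like those of a member were found by Pearson correlation among about 11780 genes. Nearest to Grin2c were Trmt10b, a transfer RNA methyltransferase gene (r = 0.993), and Yrdc (r = 0.989). Nearest to Grin2d were Gm715 (r = 0.996) and Prdm1, a transcription factor gene (r = 0.983). Nearest to Grin3b were Gm44167 and Card19 (r = 0.989 each). With 6 points that share library and scaling, 100 to 130 genes per member passed r = 0.9, so such values are easily reached.

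The antisense gene Grin1os, named here after its values were seen, had a higher mean in overexpression cortex where Grin1 had a lower one. Its control libraries A, B and C held 197.5, 235 and 273.5 scaled reads (235.5 ± 38, SD, n = 3), and its overexpression libraries 284, 323 and 204 (270 ± 60.6, SD, n = 3). The groups overlapped, with overexpression C next to the lowest control library, while 6.85% of the genes recovered at means of 10 or more had none. The log2 ratio of means was 0.20 (p = 0.364 in the authors' deposited table), and limma gave 0.18 with a 95% interval from -0.19 to 0.55 and an adjusted p of 1. The limma value was 0.37 without overexpression C (95% interval 0.036 to 0.71, adjusted p = 0.999), 0.06 without control A and 0.04 without overexpression B. Its overexpression library values depend on the 2-fold limit, since 2 combinations fitted the mean with no limit and 1 within 2-fold. Since 45.2% of Grin1os exon bases also belong to Grin1, part of these reads could belong to either gene.

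The other ionotropic glutamate receptors served as a comparison. The 4 AMPA receptor genes, which carry fast transmission, all had lower means in overexpression cortex, with log2 ratios from -0.07 (Gria4) to -0.01 (Gria1), a median of -0.03 and 0 of 4 with p under 0.05 in the authors' deposited table. Gria2, which encodes the subunit that blocks calcium entry, was at 17572 in control and 17343 in overexpression cortex. Summed, NMDA subunit reads were 1.03 times AMPA subunit reads in control and 0.989 times in overexpression cortex, a log2 difference of -0.06 that could not be tested without library values. Per kilobase of exon that ratio was 0.691 in control and 0.667 in overexpression cortex, and per kilobase of coding sequence 0.715 and 0.685, so it was below 1 in both groups on both scales. Of 7 kainate and delta receptor genes 3 were higher and 4 lower, with a median of -0.04 and 0 of 7 with p under 0.05 in the authors' deposited table. Over all tested genes 0.534% had p under 0.05 in the authors' deposited table. The counts of 0 in both lists are therefore near the background. Grik5, a kainate subunit, was at 6937 and 6564, and Grik3 at 2412 and 2520.

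**Figure D4:**
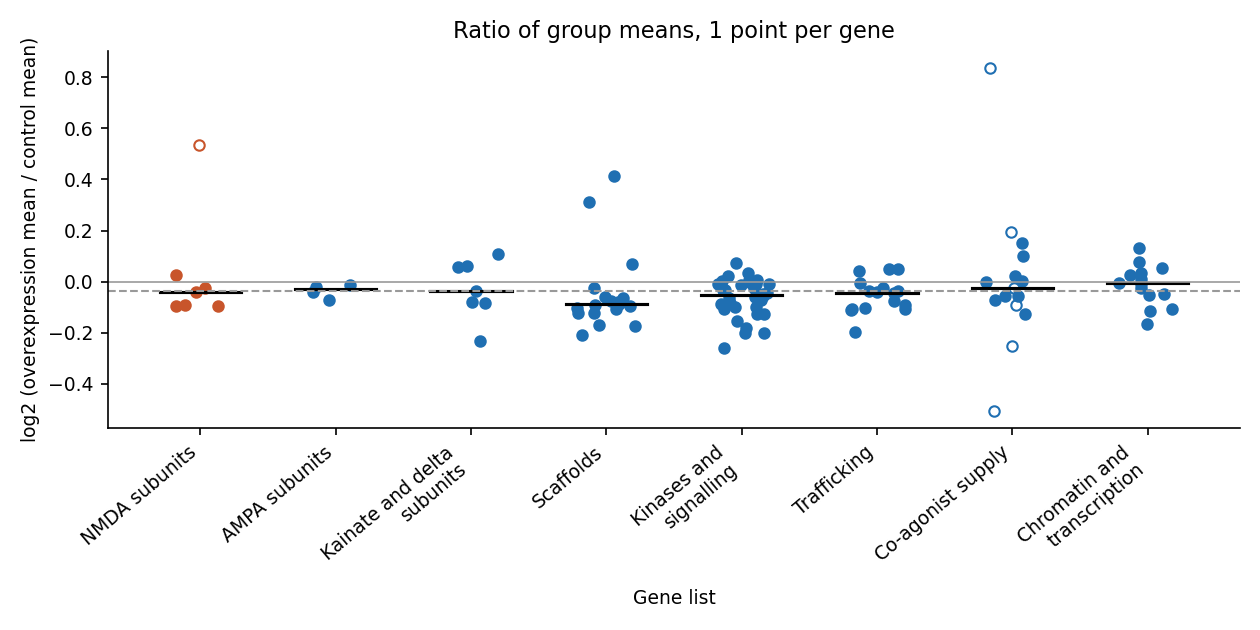
Log2 ratio of the overexpression over the control mean, 1 point per gene, for the NMDA subunits (orange) and 7 lists of related genes (blue). Open circles are genes with a mean under 100, black bars list medians, and the dashed line the median of genes with means of 1000 or more. Grin3b is the open circle at 0.54 among the NMDA subunits, and the other members lie between -0.10 and 0.02.

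Genes that act with the receptor gave no call in any list, with 0 genes past the threshold of 0.05 in the authors' deposited table, adjusted or not. Over all 30152 tested genes, 0% passed it adjusted and 0.534% unadjusted in the authors' deposited table. These counts of 0 are therefore near the background and do not show that the genes were unchanged. Of 18 scaffold genes of the postsynaptic density, which anchor the receptor, 15 had a lower and 3 a higher mean in overexpression cortex, with a median log2 ratio of -0.09. Dlg4, which encodes the scaffold PSD-95, was at 20998 in control and 20667 in overexpression cortex, and Shank1 at 23371 and 22097. Of 34 kinase, phosphatase and calcium signalling genes 28 had a lower mean, with a median of -0.05. Camk2a, the kinase activated by calcium through the receptor, was at 66769 in control and 63088 in overexpression cortex. Of 16 genes of transport, endocytosis and associated membrane proteins 13 had a lower mean, with a median of -0.04, and the endocytic adaptor genes Ap2m1 and Ap2b1 were at 11449 and 10103 in control and 11250 and 9389 in overexpression cortex. Among all genes with a mean of at least 1000, 3012 of 4306 had a lower mean and the median was -0.03.

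Of 15 genes that supply or remove the co-agonists 9 had a lower and 6 a higher mean in overexpression cortex, with a median of -0.02 and a range from -0.51 to 0.84. Of the 15, 4 had means below 10 in both groups, and both ends of that range came from these. Over the genes of the list with a mean of at least 100 the median was -0.002. Psat1, an enzyme of serine synthesis, was at 1703 in control and 1622 in overexpression cortex, and Slc1a4, which carries serine across membranes, at 1222 and 1240. Of 14 chromatin and transcription factor genes linked to Grin2 genes 8 had a lower and 6 a higher mean, with a median of -0.0063. Tbr1, known to act on Grin2b in cortex, was at 2946 in control and 2847 in overexpression cortex. With both columns brought to the same total, the medians of the AMPA, co-agonist and chromatin lists turned positive, at 0.002, 0.0084 and 0.03, and those of the other lists stayed negative.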

How the data were processed

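Each signal value deposited by the authors is a group mean of scaled read counts from 3 libraries, judging by the values. Per the file headers, every gene also has a p-value, raw and adjusted. The submitters' processing notes name TopHat2 2.0.9 and Bowtie2 2.0.6. Counter, annotation, build, strand setting and test: not given in the sources used here. Symbols were found for 98.8% of 47069 Ensembl IDs. The members and gene lists were chosen with earlier results of these data known.

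Log2 ratios were computed from the group means, with a threshold of 0.05 on the authors' adjusted p. Lengths came from GENCODE M21, which need not be the annotation that was counted. Library values were recovered by matching each mean, written to 10 significant digits, to whole reads of 3 libraries. A match was used where exactly 1 combination fitted, over all combinations for means under 100, and within 2-fold of the mean from 100 up to 1000. In overexpression cortex the limit was 1.25-fold from 400, which also limits the SD that can be seen there. In control cortex 96.8% of 3281 genes with means of 400 to 1000 lay within 1.25-fold. For Grin2c and Grin2d in overexpression cortex 6 combinations each fitted with no limit. Within 2-fold 5 fitted for Grin2c and 3 for Grin2d, and for Grin2c 2 fitted within 1.5-fold. Scaling factors were 0.907 to 0.982 in control and 0.966 to 1.23 in overexpression libraries. limma 3.58.1 (R 4.3.3), with a trend and Benjamini-Hochberg adjustment, was run on log2 of 1 plus each recovered value, over 12395 genes with a mean of at least 10, or 25451 with no minimum. The recovery and limma were tested on simulated data. The simulated overexpression libraries had the spread of control genes, so they do not test the 1.25-fold limit. The changes planted for limma were larger than those of the members. The limma fit had been foreseen for libraries that could be recovered, while the fold limits of the recovery and the permutation test of Grin2c against Grin2d were chosen after seeing the data. Reads behind a share were counted with the smallest scaling factor of a group. Named genes were the members, Ctnnb1, Neurod6, the 2 most abundant genes of each partner list, any list gene with an authors' p under 0.05, and the 2 genes most correlated with each recovered member. Gria4, the marker genes, Tmem259 and Grin1os were named after their values were seen. Some genes named by this rule are not reported here.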

Additional observations from a re-analysis of the deposited data

How the results depend on the processing

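The authors' adjusted p called 0 of the 7 members. limma, with a minimum mean of 10 or none and with each recovered library left out, called neither Grin2c nor Grin2d, nor Grin3b with no minimum mean. Grin1, Grin2a, Grin2b and Grin3a were not in these fits. The Grin2c log2 ratio ranged from -0.023 to 0.051 with 1 library left out, changing sign without overexpression B. That of Grin2d ranged from -0.0895 to 0.0013, changing sign without overexpression C, and that of Grin3b from 0.21 to 0.79. Rescaling the columns to the same total added 0.03 to every log2 ratio, and turned Grin3a to 0.0073. Per kilobase of coding sequence, a length added after the data were seen, Grin2b took place 1, Grin1 place 2, Grin3a place 4, Grin2c place 5 and Grin2d place 6 in both groups. The Grin2a share per kilobase of exon was 38.29% in control and 38.26% in overexpression cortex. On that scale the share differences of Grin2c and Grin3b in the 7 were 0.557 and 0.0331 percentage points, against 0.206 and 0.0074 in reads. In these cases the change of length is the cause by construction. The other 121 of 138 alternatives were labelled as unchanged, though medians of 3 uncalled lists changed sign as given above. For the log2 ratios of members that label means the same sign only. Grin3b thus counts as unchanged at 0.19 with 10 added to each mean, against 0.54 without. Some of the 121 could not have changed. A list count of 0 stays 0 over fewer genes, and length cancels in the change of the Grin2a to Grin2b and Grin2c to Grin2d ratios. Genes with an unadjusted limma p under 0.05 numbered 256, 808 with no minimum mean, and 163 (without control A) to 480 (without control C) with 1 library left out, with 0 after adjustment in each. No paired analysis was possible because the deposited columns carry no replicate number. Depth limits Grin3b, and the lack of library values limits Grin1, Grin2a, Grin2b and Grin3a.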
